A study of Homo sapiens with 2 samples.

Results

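Ubiquitin-conjugating enzymes, or E2s, take activated ubiquitin from an E1 enzyme onto a cysteine and, with an E3 ligase that picks the substrate, pass it to a target protein. Which E2 acts does much to set whether a single ubiquitin or a chain is built and through which lysine the chain is linked. Some family members carry ubiquitin-like proteins such as NEDD8 or ISG15 instead. The E2 genes were taken as the symbols formed by UBE2, 1 letter and an optional number, read by probe sets that name 1 gene. This gave 25 of the 19775 genes on the array, read by 73 probe sets (sets of short probes that each read part of a transcript). Other symbols of this form were not analysed here.

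The samples were MKN28 cells, an established human gastric cancer line that is listed as a derivative of the gastric line MKN74. The Sox2-labelled array held RNA of cells that overexpressed Sox2, a stem cell transcription factor that also acts in the foregut, after lentiviral transfer and puromycin selection. The control-labelled array held RNA of cells labelled control, and the labels do not say whether these received a virus or puromycin. Each group was 1 sample on 1 array, so no difference has a replicate error. Values are the deposited linear intensities, given with the Sox2-labelled array first, and differences are log2 of the Sox2-labelled array minus log2 of the control. The leading probe set of a gene is the one with the highest mean log2 intensity, and it gives the gene's value.

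SOX2 itself read 172 and 123 (log2 difference 0.49) by its leading probe set and differed by -0.46 to 0.31 by the other 3, so this gene does not check the label. Of 9 gastric epithelial markers 7 passed the filter, an intensity of 34.25 in the higher array, beside 14253 of all 19775 genes. Among other lists, 2 of 2 endothelial and 1 of 3 leukocyte markers passed. None of the markers of these 3 lists lay above the 95th percentile of its array. The epithelial marker CDH1 read 78.6 and 91.3, and the leukocyte marker CD3E 82.0 and 71.4. EPCAM, an epithelial surface protein, read 4.96 and 6.32. The fibroblast collagens COL1A1 (557 and 576) and COL3A1 (418 and 374) lay above the 95th percentile in both arrays. The fibroblast marker DCN read 68.6 and 54.1. Summed over each list, the fibroblast markers differed little between the arrays (1044 and 1005), as did the gastric markers (505 and 524). The 24 probe sets of spiked-in bacterial RNA all had lower values in the Sox2-labelled array, with a median difference of -0.75, so scaling on them would raise every difference below by 0.75.

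No E2 gene differed by 2-fold between the arrays as deposited. Of the 25 genes, 21 passed the filter, and 0 of these were at least 2-fold higher and 0 at least 2-fold lower in the Sox2-labelled array. Across the 14253 genes past the filter, 2.05% were at least 2-fold higher and 0.645% at least 2-fold lower, so a count of 0 among 21 genes is close to the background. With the arrays scaled on the spike-ins, 22 E2 genes passed the filter and 7 of them were at least 2-fold higher. Of all genes 3217 were, but how many passed the filter under that scaling was not counted. No share over all genes therefore stands beside the 7. That scaling also raised the median of all genes to 0.76 and that of the E2 genes to 0.85. The 7 is thus not read as a result about the E2 genes. As deposited, the median log2 difference of the 21 genes was 0.079, against -0.0032 for all genes. Of the 21, 12 lay above 0 and 9 below, where 49.6% of all genes lay above 0 and 50.4% below. The technical SD of a single probe set's difference was 0.28 on the log2 scale. Of the 21 E2 genes, 12 (57.1%) differed by less than it, against 65.2% of all genes. This SD is pooled and was not matched on level. Of the 21, 8 lay at or above the mean level of the UBE2G1 probe set, where the robust SD of the differences over all genes was 0.70. A difference above 0.28 is thus not unusual at that level. At a smaller size of 1.5-fold, 2 E2 genes were higher, UBE2K and UBE2G1, and 0 were lower, against 6.46% and 3.77% of all genes. In bulk RNA of this kind, a change in the share of cells that express a gene and a change in RNA per cell cannot be told apart.

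**Figure D1:**
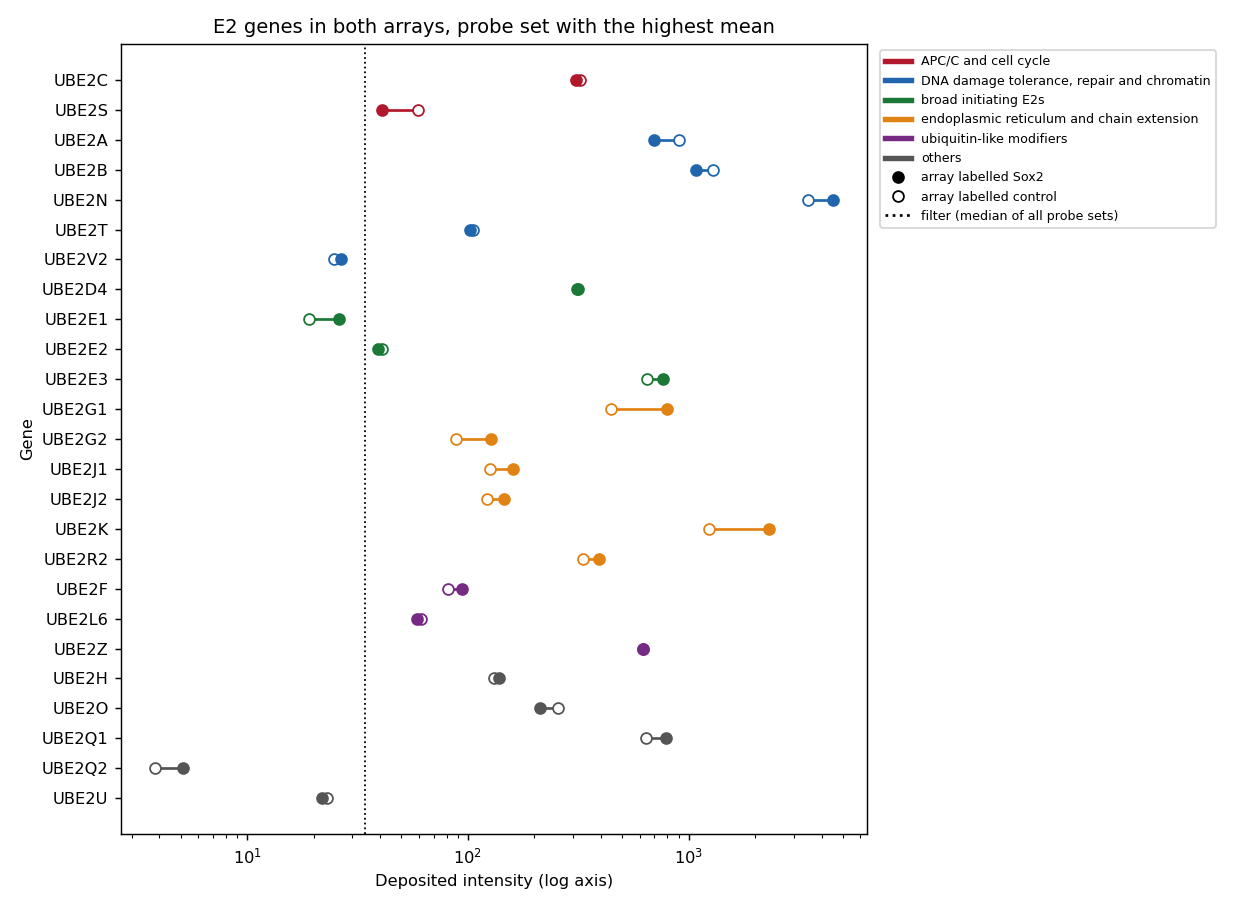
Deposited intensity (log axis) of the 25 E2 genes in the Sox2-labelled array (filled) and the control (open), by the leading probe set and coloured by role. The widest gaps among genes right of the dotted filter line at 34.25 are those of UBE2K and UBE2G1, and UBE2Q2, UBE2U, UBE2E1 and UBE2V2 lie left of it; levels of different genes cannot be ranked against each other, because each probe set binds with its own strength.

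UBE2K builds ubiquitin chains of the type that sends proteins to the proteasome, and can do so without an E3 ligase. Its leading probe set read 2302 in the Sox2-labelled array and 1243 in the control, 1.85-fold higher with a log2 difference of 0.89. The other probe sets read 147 and 83.1 (1.76-fold) and 47.5 and 23.9 (1.99-fold). All 3 were thus higher in the Sox2-labelled array, though the last passed the filter through that array alone and is no added support. Probe sets of a gene read the same RNA and are not replicates.

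UBE2G1 makes chains of the same type and extends those begun by other E2s on substrates of cullin ligases. It read 799 and 443 (1.80-fold, log2 difference 0.85) by its leading probe set. A second probe set gave 478 and 301 (1.59-fold). The last gave 43.1 and 21.1 (2.05-fold), again passing the filter through the Sox2-labelled array alone, and was the only 1 of the 73 E2 probe sets that differed by 2-fold; of the 14262 genes with a probe set past the filter, 2.55% had at least 1 that was 2-fold higher and 0.827% at least 1 that was 2-fold lower.

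For UBE2K and UBE2G1, all 3 probe sets were at least 1.5-fold higher. These were 2 of the 13 E2 genes with at least 3 probe sets. Of all 5508 genes with at least 3 probe sets, 14 (0.254%) had all of them at least 1.5-fold higher, UBE2K and UBE2G1 included, and 2 (0.0363%) had all of them at least 1.5-fold lower. This description was chosen after the values were seen, so the count adds no support. The count and its shares over all genes used no filter, and the shares were not matched on level or length. For each of the named genes, the weakest probe set read above the filter in the Sox2-labelled array alone. Shares of higher genes differed with level and length across the array. Of the 408 genes whose probe set was at or above the mean level of that of UBE2G1, 28.4% were at least 1.5-fold higher and 11.8% at least 1.5-fold lower, and the robust SD of their differences was 0.70. Of the 2833 genes at least as long as UBE2K, which spans 84657 bases, 12.1% were at least 1.5-fold higher and 2.58% at least 1.5-fold lower, against 5.05% and 4.07% of the 11400 shorter genes. The part of level and length in the differences of UBE2K and UBE2G1 was not tested.

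**Figure D2:**
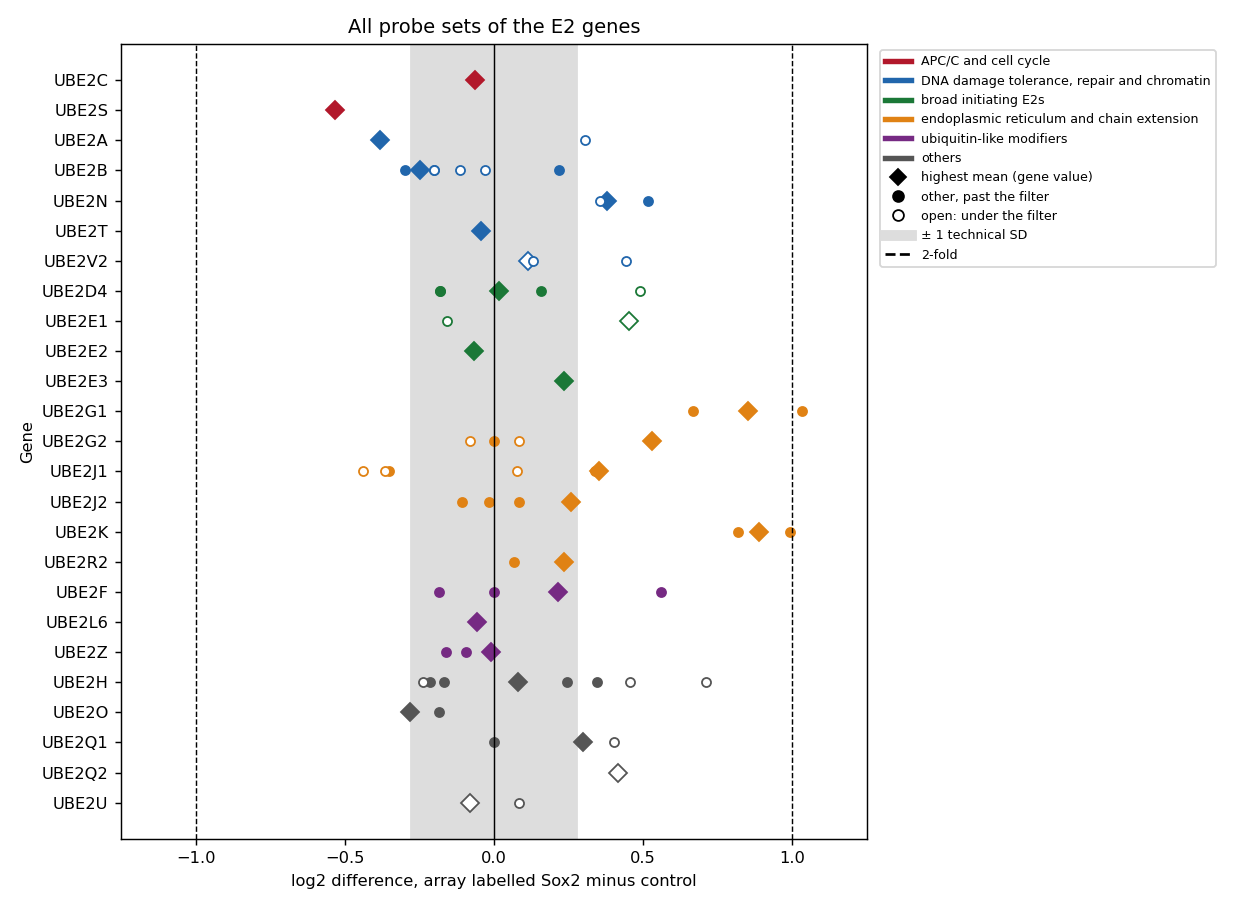
The log2 difference of every E2 probe set, Sox2 minus control, by gene and role; diamonds are the leading probe sets, open symbols lie under the filter, the grey band is ± 1 technical SD (0.28) and dashed lines mark 2-fold. All 3 probe sets of UBE2K and of UBE2G1 lie right of the band, while those of UBE2J1, UBE2H and UBE2B fall on both sides of 0.

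The other E2s of the endoplasmic reticulum and of chain extension differed less. UBE2G2, which serves the ligases that clear misfolded proteins from the endoplasmic reticulum, read 127 and 88.2 (log2 difference 0.53). Its second probe set past the filter read 65.4 and 65.4, so the higher value rested on 1 probe set. Those under the filter differed by 0.084 and -0.082. UBE2J1, anchored in the reticulum membrane, read 161 and 126 (0.35) and 75.9 and 60.0 (0.34) by its stronger probe sets. Another went the other way at 29.8 and 38.0 (-0.35) and passed the filter through the control-labelled array alone. Of the 3 under the filter, 2 also went that way (-0.37 and -0.44). The related membrane enzyme UBE2J2 read 146 and 122 (0.26), and the others lay between -0.11 and 0.084. UBE2R2, a partner of cullin ligases, read 392 and 333 (0.24) and, by its other probe set, 48.4 and 46.1 (0.068).

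By the leading probe set, all 6 genes of this role were higher in the Sox2-labelled array, between 0.24 and 0.89 with a median of 0.44. Of all genes, 49.6% were higher by any amount, a share not matched on level or length. The median difference of the genes at or above the level of the UBE2G1 probe set was 0.15. The role joins enzymes of the reticulum with others that extend chains, and it holds UBE2K and UBE2G1, already named for their differences. Of the 6, UBE2J2 and UBE2R2 lay within the technical SD of 0. UBE2S, which also extends chains, was grouped with the anaphase-promoting complex and was lower. The count was 5 of 6 under 4 alternatives. UBE2J1 turned to -0.065 with all probe sets averaged, to -0.35 with the probe set of the largest difference and to -0.37 when _x_at and _s_at probe sets were left out, and UBE2R2 to -0.015 under quantile normalization. UBE2K and UBE2G1 were the highest of the 6 under each of these, at 0.70 and 0.63 after quantile normalization, their lowest values.

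The lowest differences among the E2 genes past the filter were those of UBE2S and UBE2A. UBE2S extends chains on substrates of the anaphase-promoting complex, the ligase of mitotic exit. It read 40.9 in the Sox2-labelled array and 59.2 in the control, 1.45-fold lower with a log2 difference of -0.53, by its only probe set and near the filter. UBE2C, which starts the chains that UBE2S extends, read 308 and 322 (-0.065), a difference well under the technical SD. Subunits of the complex were mixed. ANAPC11, the catalytic subunit, read 50.3 and 65.6 (-0.38), and 31.5 and 22.0 (0.52) by a probe set under the filter, while ANAPC2 read 76.9 and 85.8 (-0.16). The 4 probe sets of the activator FZR1, all past the filter, lay on both sides of 0, between -0.11 and 0.19.

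UBE2A and UBE2B are close relatives that act with RAD18 on stalled replication forks and with RNF20 and RNF40 on histone H2B. UBE2A read 697 and 909, 1.30-fold lower (-0.38), and a probe set under the filter read 14.2 and 11.5 (0.30). UBE2B read 1085 and 1288 (-0.25). Of its other probe sets past the filter, 2 were lower (84.2 and 96.8, 36.9 and 45.4) and 1 was higher (97.7 and 84.1). Those under the filter differed by -0.031, -0.11 and -0.20. Among the partners, RNF40 read 75 to 87.3 and 76.0 to 118 over 3 probe sets, RNF20 stayed under the filter, and RAD18 read 42.8 and 45.0.

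UBE2N makes the chains used in DNA repair and inflammatory signalling, together with a UBE2V partner that lacks the catalytic cysteine. It read 4496 and 3459 (0.38), and 325 and 227 (0.52) by a second probe set, so it was higher by less than 1.5-fold. Both end in _x_at, the mark of probes that may bind related transcripts. The remaining UBE2N probe set, without that mark, was under the filter at 6.25 and 4.89 (0.35). UBE2NL, a near-identical copy outside the set, read 590 and 460 (0.36), also by an _x_at probe set, and the copies cannot be told apart here. The partner UBE2V2 stayed under the filter by all 3 probe sets, at 26.7 and 24.7, 12.8 and 11.6, and 11.7 and 8.59. UBE2T, the E2 of the Fanconi anaemia pathway, read 103 and 106 (-0.042).

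The E2s that start chains on many substrates differed little. UBE2D4 read 317 and 313 (0.016), with 3 further probe sets past the filter between -0.18 and 0.16. Another, under the filter, gave 26.7 and 19.0 (0.49). UBE2E3 read 766 and 650 (0.24) and UBE2E2 39.1 and 41.0 (-0.066), each by its only probe set. UBE2E1 stayed under the filter, at 26.1 and 19.0 and at 11.1 and 12.4. All 3 members of this role past the filter differed by less than the technical SD.

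So did the 3 carriers of ubiquitin-like proteins. UBE2F, which loads NEDD8 onto the cullin CUL5, read 94.1 and 81.0 (0.21). The remaining probe sets, all past the filter, gave 40.3 and 40.3, 44.0 and 29.9 (0.56), and 31.2 and 35.4 (-0.18). The one at 0.56 passed through the Sox2-labelled array alone, and the one at -0.18 through the control-labelled array alone. UBE2L6, the E2 of the interferon-induced modifier ISG15, read 59.0 and 61.4 (-0.055), and ISG15 itself 63.4 and 63.1. UBE2Z, which takes ubiquitin or the ubiquitin-like FAT10 from the E1 UBA6, read 619 and 624 (-0.010), and its 3 probe sets all lay between -0.16 and -0.010.

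The remaining members have more particular partners. UBE2H, the E2 of the CTLH ligase complex, read 138 and 131 (0.079), and its 5 probe sets past the filter lay between -0.22 and 0.34. Its probe sets under the filter reached further, at 0.71 (32.3 and 19.7), 0.46 (30.5 and 22.2) and -0.24 (13.2 and 15.6). UBE2O, a large protein with both E2 and E3 activity, was lower by both probe sets, at 211 and 257 (-0.28) and 46.4 and 52.7 (-0.18). UBE2Q1 read 793 and 644 (0.30) by its leading probe set, and its second gave 65.3 and 65.4. Another, under the filter, gave 25.6 and 19.3 (0.40). UBE2Q2 (5.11 and 3.83) and UBE2U (21.7 and 23.0, and 8.42 and 7.95) were under the filter. For 14 E2 genes more than 1 probe set passed the filter, and these were all higher for 5 genes and all lower for 2. For all 5495 genes with at least 2 probe sets past the filter these shares were 22.2% and 21%.

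**Figure D3:**
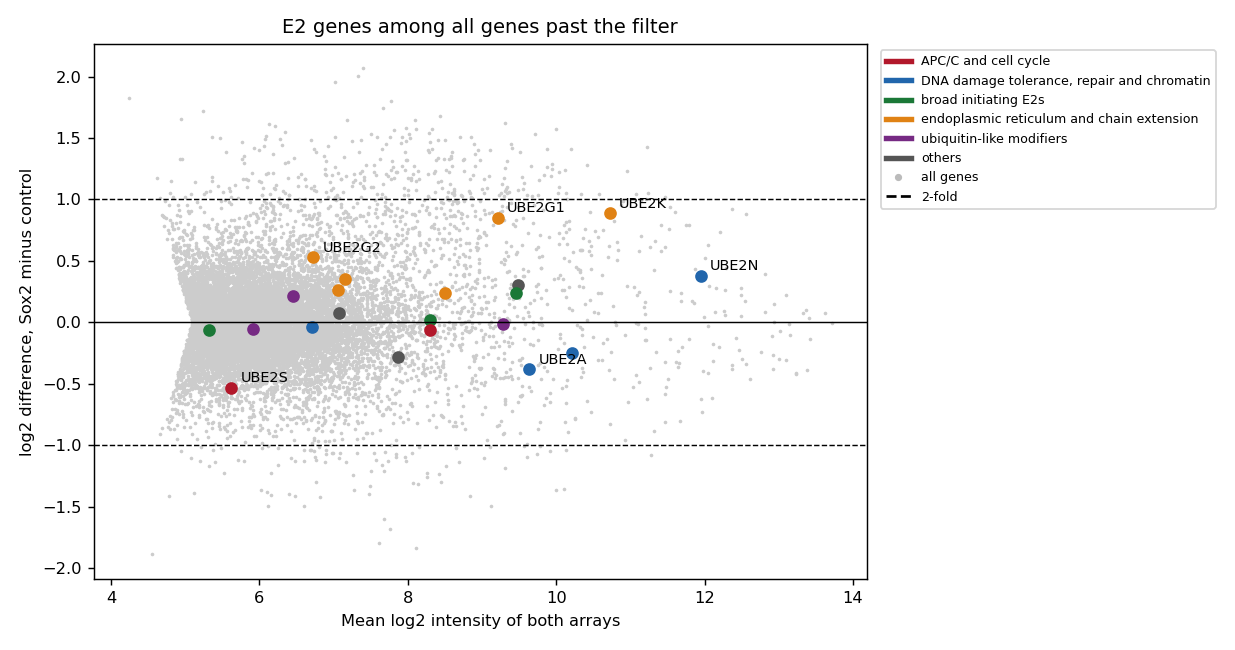
The log2 difference, Sox2 minus control, against the mean log2 intensity for the 14253 genes past the filter (grey) and the 21 E2 genes past it (coloured by role), with 2-fold as dashed lines. No E2 gene lies beyond the dashed lines, and UBE2K (0.89) and UBE2G1 (0.85) lie highest, at levels where the grey points spread widely.

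The E2 genes with the highest and lowest differences are shown by the 250 bases before their RefSeq start (GRCh38.p14, read 5′ to 3′ on the gene's strand), so that the sequence at the starts of genes that differed in opposite directions can be compared. Capitals mark GC boxes (GGGCGG or its reverse complement CCGCCC) and CCAAT boxes (CCAAT or ATTGG). Matches may overlap, and each is counted.
UBE2K, chr4:39697886-39698135, plus strand: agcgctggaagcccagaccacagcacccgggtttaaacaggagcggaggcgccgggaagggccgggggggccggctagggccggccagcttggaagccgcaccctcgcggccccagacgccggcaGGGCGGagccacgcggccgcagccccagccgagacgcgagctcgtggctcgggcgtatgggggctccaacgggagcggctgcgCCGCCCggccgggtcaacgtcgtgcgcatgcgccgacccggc
UBE2G1, chr17:4366676-4366925, minus strand: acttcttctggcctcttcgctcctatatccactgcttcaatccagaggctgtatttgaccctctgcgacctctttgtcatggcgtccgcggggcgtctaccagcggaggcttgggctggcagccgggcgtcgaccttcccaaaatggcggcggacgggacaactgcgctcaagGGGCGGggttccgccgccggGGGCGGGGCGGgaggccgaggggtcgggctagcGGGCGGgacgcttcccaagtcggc
UBE2S, chr19:55407789-55408038, minus strand: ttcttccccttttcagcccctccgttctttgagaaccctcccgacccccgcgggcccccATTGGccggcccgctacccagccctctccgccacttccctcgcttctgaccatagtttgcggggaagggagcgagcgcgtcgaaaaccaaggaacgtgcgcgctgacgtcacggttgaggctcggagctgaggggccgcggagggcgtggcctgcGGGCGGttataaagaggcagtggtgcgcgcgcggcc
UBE2A, chrX:119574313-119574562, plus strand: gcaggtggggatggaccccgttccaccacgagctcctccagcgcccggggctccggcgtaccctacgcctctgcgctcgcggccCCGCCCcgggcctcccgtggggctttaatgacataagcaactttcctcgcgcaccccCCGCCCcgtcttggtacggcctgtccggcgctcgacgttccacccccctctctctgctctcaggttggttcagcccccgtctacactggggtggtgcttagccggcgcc
The higher pair held 2 (UBE2K) and 4 (UBE2G1) GC boxes and the lower pair 1 (UBE2S) and 2 (UBE2A), so GC boxes were found on both sides. The UBE2S window alone of the 4 held a CCAAT box and a TATA box (TATAAA or TTTATA).

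Promoter windows were listed for 20 of the 25 E2 genes, taking the first listed start of each gene. A GC box was found in 16 of the 20 (80%), against 56.3% of 15384 genes on the array and 42.3% of all 27305 windows. CCAAT boxes were in 6 of 20 (30%, against 34.1% of array genes and 33.0% of all windows) and a TATA box in 1 (5%, against 8.31% and 11.1%). The E box CACGTG and the letters ACAATG or CATTGT, a form of the SOX core motif, were in 0 of 20, against 7.83% and 6.98% of array genes and 6.49% and 9.45% of all windows. The median GC content was 71.6% for E2 genes and 62.4% for array genes, with medians of 28 and 18 CpG pairs. These matches describe the letters of these windows only.

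Genomic length varied widely within the family. The median was 29701 bases for the 21 E2 genes past the filter and 24437 for all genes past it. The 5 members past the filter that are at least as long as UBE2K were UBE2K (log2 difference 0.89), UBE2G1 (0.85), UBE2R2 (0.24), UBE2H (0.079) and UBE2E2 (-0.066), so long members were spread from the top of the range to about 0. The short members were spread too: UBE2C (4309 bases) differed by -0.065, UBE2S (8044 bases) by -0.53, UBE2A (9861 bases) by -0.38, UBE2Q1 (10086 bases) by 0.30 and UBE2T (10280 bases) by -0.042. Pearson's r between log10 length and the difference was 0.40 over the 21 E2 genes and 0.16 over 14233 genes, as a description over genes that share the same 2 arrays.

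**Figure D4:**
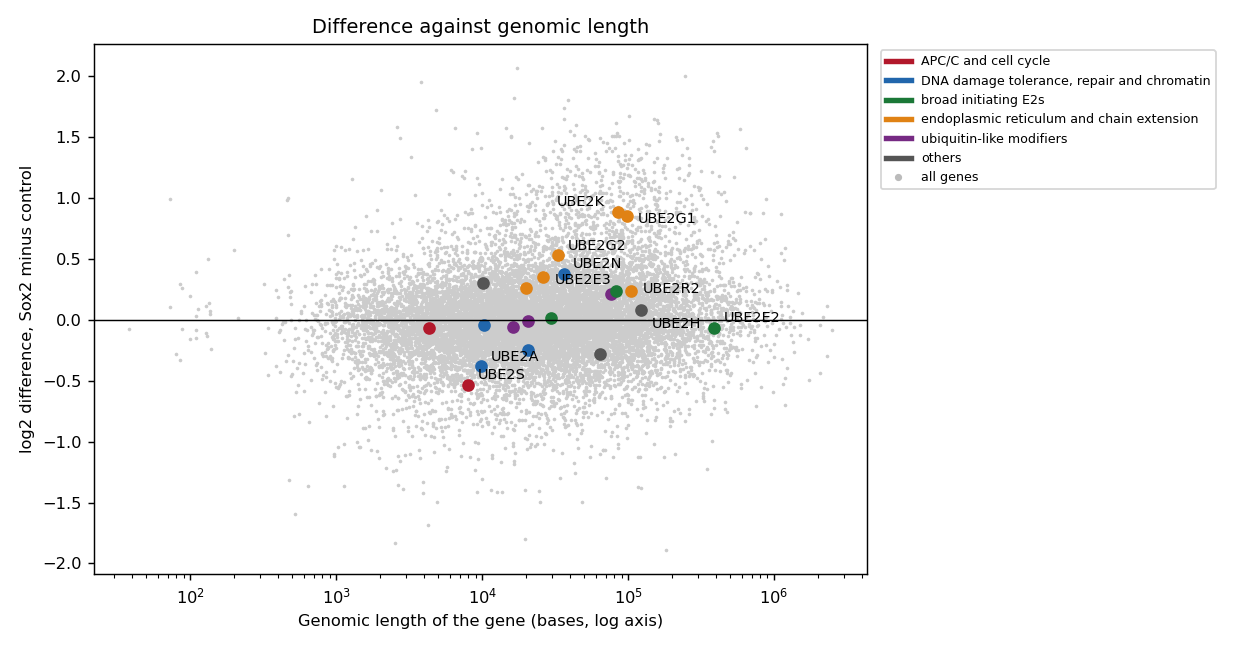
The log2 difference, Sox2 minus control, against genomic length (log axis) for all genes past the filter with a known length (grey) and the 21 E2 genes (coloured by role). UBE2K and UBE2G1 lie at the upper right of the E2 genes, at 84657 and 97417 bases, and UBE2S and UBE2A lowest among the shorter ones, while UBE2E2, the longest at 388828 bases, lies near 0.

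The rest of the ubiquitin pathway was described by a list of 91 genes, of which 78 were read and 69 passed the filter. A total of 7 of the 69 (10.1%) were higher by 2-fold or more and 0 lower, against 2.05% and 0.645% of all genes; the difference from the E2s was not tested. The median log2 difference of the list was 0.19. Its genes past the filter had a median length of 46752 bases, against 24437 for all genes. Of all genes, 3.93% of those at least as long as that and 5.29% of those at or above the list's median level were at least 2-fold higher. The part of length and level in the list's count was not tested. The count was 1 when all probe sets of a gene were averaged and 3 when probe sets of the _x_at and _s_at kinds were left out.

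Upstream of the E2s, UBA1, the main ubiquitin E1, read 1533 and 626, 2.45-fold higher. Its other probe set read 48.4 and 51.6, so the difference was seen by 1 of 2. UBA6, the second ubiquitin E1, read 45.2 and 24.4 (1.85-fold), by a probe set that passed the filter through the Sox2-labelled array alone. Its 6 other probe sets were under the filter, with differences from -0.79 to 1.07. Of the 6 E1 genes past the filter, the other 4 differed by less than 1.5-fold, and NAE1, a subunit of the NEDD8 E1, was lowest at 390 and 549 (-0.49). None of the 6 ubiquitin and ubiquitin-like genes past the filter reached 1.5-fold. UBB, a polyubiquitin gene, read 5045 and 4830, and the largest difference was that of NEDD8 at 1361 and 1686 (-0.31).

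Among proteins with an E2 fold outside the UBE2 names, BIRC6, a giant E2 and E3 hybrid that blocks apoptosis, read 595 and 237 (2.51-fold higher). Its other probe set gave 129 and 44.5 (2.91-fold), so both were higher. The other 7 of 8 past the filter were under 2-fold, among them CDC34, the closest relative of UBE2R2, at 173 and 136 (0.35) and 117 and 125 (-0.10).

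Of 49 E3 ligase genes past the filter, 5 were at least 2-fold higher and 44 under 2-fold. PIAS1, a SUMO ligase, read 110 and 40.7 (2.70-fold), with 0.030 and 0.38 by its other probe sets. UBE3A, the ligase lost in Angelman syndrome, read 187 and 73.4 (2.55-fold), and 4 more past the filter lay between -0.019 and 0.68. ARIH1, which works with cullin ligases, read 401 and 190 (2.11-fold), 386 and 150 (2.57-fold) and, by another, 72.5 and 78.3. RNF168, which ubiquitylates histones at DNA breaks, was lowest of the list's genes past the filter at 33.8 and 48.8 (-0.53). It passed the filter through the control-labelled array alone.

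The other 2 were cullins, the scaffolds of the ligases that UBE2G1 and UBE2R2 serve. CUL2 read 398 and 160 (2.49-fold) and CUL4B 139 and 69.4 (2.01-fold), with 2.06-fold by a second CUL4B probe set past the filter. CUL1 (415 and 220), CUL3 (675 and 378) and CUL5 (148 and 77.5) were higher by 1.79- to 1.91-fold, while CUL4A read 45.3 and 49.98. Thus 5 of the 6 cullins were at least 1.5-fold higher by the leading probe set, against 6.46% of all genes and 12.1% of genes at least as long as UBE2K. This grouping was made after the values were seen. A second CUL1 probe set past the filter read 63.4 and 60.5. Under the filter, other probe sets differed by -1.83 for CUL2 and by -0.38 and -0.38 for CUL3. Those of CUL5 lay between -0.49 and 0.32, and those of CUL4B were at -0.14 and 0.93. RBX1, the RING subunit that binds the E2 in cullin ligases, read 579 and 756 (-0.38) and was not higher.

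Of the CTLH complex, the ligase that UBE2H serves, 3 subunits were in the list. RANBP9, a scaffold subunit, read 1212 and 749 (1.62-fold), 661 and 400 (1.65-fold) and 89.8 and 46.7 (1.92-fold). RMND5A, a RING subunit, read 430 and 247 (1.74-fold) by its leading probe set and 42.3 and 44.1 by a second, and MAEA, its partner RING subunit, 78.0 and 61.1 (1.28-fold). They are named after their values were seen.

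**Figure D5:**
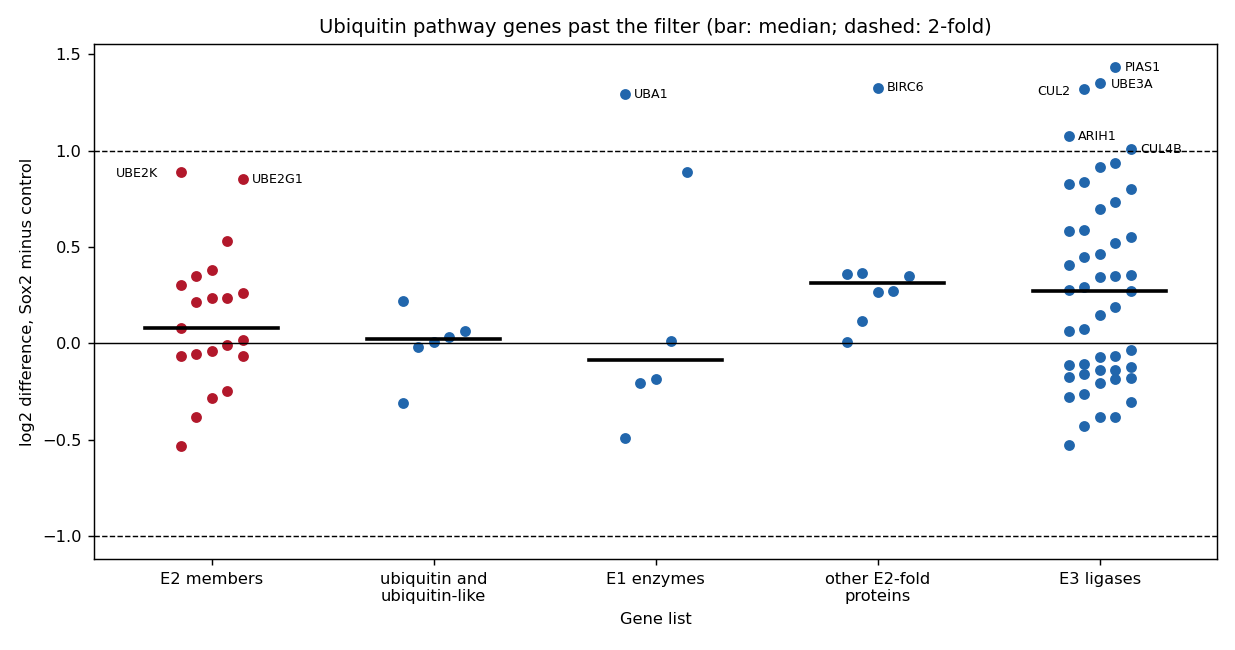
The log2 difference, Sox2 minus control, of each gene past the filter (points) and the median (bars) for the 21 E2 genes and the 4 sub-lists of the ubiquitin pathway, with 2-fold as dashed lines. The E2 genes stay within the dashed lines, and UBA1, BIRC6 and 5 E3 genes lie above the upper line.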

How the data were processed

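Total RNA of the Sox2 sample and of the control sample was hybridised to 1 Affymetrix array each. The authors deposited 1 linear intensity per probe set and array, and the submitters' processing notes name RMA without a version or settings, so the last step that gave linear values is not known. Intensities were taken to log2 with no pseudocount and no further scaling (the array medians were 34.25 for Sox2 and 34.26 for control). Probe sets were named through the platform annotation, with symbols updated to the GRCh38.p14 RefSeq table by gene identifier. Of 54675 probe sets, 41091 named exactly 1 gene, 1801 several and 11721 none, and 62 were Affymetrix controls.

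A gene took the value of its leading probe set, by mean log2 intensity over both arrays. It passed the filter where either array read at least 34.25, the median over all probe set values. With 1 array per group no test was possible, so differences were counted by a fixed size of 2-fold, with no p-values. The number of arrays limits precision. The only error available is technical, 0.28 on the log2 scale: the robust SD of 1 probe set's difference, from 3471 genes of which exactly 2 probe sets passed. Variation of cultures or of arrays is not in it. Every member is accounted for. Of the pathway list, genes at 2-fold or, in a sub-list without any, the one with the largest difference were to be named; other named partners were chosen after their values were seen. The members and lists were chosen with earlier results of these data known. Alternatives covered the probe set, the filter, the scaling and the fold threshold; spike-in scaling and the median over probe sets were added after seeing the data. The counting code was run on simulated data with changes larger than the 2-fold threshold. This checks the code and says nothing of the differences reported here. Computations used Python 3.11.15, numpy 2.4.6, pandas 2.3.3 and statsmodels 0.14.6, with matplotlib 3.10.9 for plots.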

Additional observations from a re-analysis of the deposited data

How the results depend on the processing

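With 1 array per group there is no replicate to leave out, and levels near the filter have no detection call. No paired analysis was possible because each group holds 1 sample. The count of E2 genes at least 2-fold lower was 0 under every alternative run, including spike-in scaling, and the count at least 2-fold higher stayed 0 except as given here. It became 1 (UBE2G1) with the probe set of the largest difference, 2 at a 1.5-fold threshold and 7, of 22 past the filter, with spike-in scaling. The 7 has no share over all genes beside it and is not read as a result about the E2 genes. Median centring, lowess centring, quantile normalization and the filters left the difference of each of the 25 E2 genes within the technical SD of its value, with the sign changed for 2 genes under quantile normalization and 1 under lowess. Averaging all probe sets moved 4 genes by more than that, and leaving out probe sets ending in _x_at or _s_at moved 4 of 22. The cause was not tested. The median of the E2 genes turned to -0.042 with the probe set of the largest difference, -0.013 without _x_at and _s_at probe sets and -0.015 under quantile normalization.

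The pathway list counted 7 higher as reported, 1 with averaged probe sets, 3 without _x_at and _s_at probe sets, 16 at 1.5-fold, 0 at 3-fold, 34 with spike-in scaling and 3 with the median of the probe sets past the filter. All genes counted 292 higher and 92 lower. Averaging gave 63 and 43, leaving out _x_at and _s_at probe sets 172 and 61, no filter 177 lower, 1.5-fold 921 and 537, 3-fold 14 and 5, and the median over probe sets, which tests fewer genes, 65 and 2. Spike-in scaling, which by construction adds 0.75 to every difference, gave 3217 higher and 3 lower. Its medians were 0.85 for the E2 genes, 0.94 for the pathway list and 0.76 for all genes. Because all genes past the filter were not counted under it, the 34 and the 3217 have no shares to compare.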

Other observations

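The partner of UBE2N that lacks a catalytic cysteine, UBE2V1, was read here only by probe sets that name several genes. The 4 of them read 27.4 and 27.1, 34.6 and 38.2, 35.9 and 37.7, and 40.8 and 45.6 in the Sox2-labelled and the control-labelled array. The first 3 also name UBE2V2, and all 4 name PEDS1 and its readthrough with UBE2V1. Their log2 differences lay between -0.16 and 0.014, within the technical SD of 0.28, while UBE2N differed by 0.38 and 0.52.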
